A study of Mus musculus with 8 samples.

Results

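Heat shock chaperones are proteins that hold, fold or refold other proteins. The genes described here are Hspa1a, Hspa1b, Hspa8, Hspa5, Hsp90aa1, Hsp90ab1, Hsp90b1, Hspd1, Hspe1 and Hsf1, the last of which encodes the transcription factor that switches on the heat shock response. Every probe set that the platform annotation gives to a single one of these 10 genes was taken, which gave 21 probe sets for 8 of them, out of 18194 genes with such a probe set on the array. No probe set was listed under Hsf1 or Hsp90ab1, and these 2 genes were not analysed here. The other 8 genes had 1 (Hspa1a, Hspd1), 2 (Hspe1, Hsp90b1), 3 (Hspa1b, Hspa5), 4 (Hspa8) or 5 (Hsp90aa1) probe sets.

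RNA came from mouse embryos at the 2-cell stage, 20 embryos pooled per sample, in 4 Brg1 mutant and 4 wild type samples. Brg1 is another name for Smarca4, which encodes the catalytic subunit of BAF chromatin remodellers, and the series title speaks of the maternal protein. The labels name neither the allele, a deleter line, the strain, the age of the mothers nor the culture of the embryos, so nothing more can be said of what the mutant and wild type groups share or differ in. Values are MAS5 signals, 1 linear array intensity per probe set, and the arrays were read at the same trimmed mean. Signals of different probe sets cannot be set against each other, since each has its own affinity. Differences are given as log2 changes, mutant minus wild type. A change passed the test where limma's p, adjusted by Benjamini-Hochberg over all 22518 tested probe sets, was under 0.05. The labels call the samples biological replicates without saying that mothers or collections differed, and the p-values therefore cover the spread seen among these 8 and may be technical in part.

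Heat shock factor 1 is held inactive by chaperones in unstressed cells and, once freed, binds promoter elements built from repeated GAA units. Unfolded protein in the endoplasmic reticulum (ER) acts through other sensors, and their factors bind the ER stress element, a CCAAT box followed at a fixed spacing by CCACG. In the mouse, Hspa1a and Hspa1b are among the first genes transcribed by the embryo itself, at the late 1-cell and early 2-cell stages, and they are then switched on without any heat shock. Hspa8 is the cognate HSP70 of unstressed cells.

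Promoter windows of 300 bases, 250 before the RefSeq start of the gene and 50 from it on, were held for 6 of the 10 genes (7 windows, RefSeq, GRCm38.p6), and 5 are printed, 2 to show how alike the neighbouring copies are and 3 because they hold the ER stress element or the 3-unit heat shock element. All are written 5′ to 3′ along the strand of the gene. Those of Hspa1a (chr17:34972107-34972406, minus strand) and Hspa1b (chr17:34959189-34959488, minus strand) have GAANNTTC (N is any base) in capitals. Those of the ER chaperones Hspa5 (chr2:34771840-34772139, plus strand) and Hsp90b1 (chr10:86705395-86705694, minus strand) have the ER stress element in capitals, searched on both strands as CCAAT and CCACG with 9 bases of any kind between them. That of the mitochondrial cochaperonin gene Hspe1 (chr1:55087898-55088197, plus strand) has the 3-unit heat shock element in capitals, searched on both strands as GAA, TTC and GAA with 2 bases of any kind between neighbours.
Hspa1a: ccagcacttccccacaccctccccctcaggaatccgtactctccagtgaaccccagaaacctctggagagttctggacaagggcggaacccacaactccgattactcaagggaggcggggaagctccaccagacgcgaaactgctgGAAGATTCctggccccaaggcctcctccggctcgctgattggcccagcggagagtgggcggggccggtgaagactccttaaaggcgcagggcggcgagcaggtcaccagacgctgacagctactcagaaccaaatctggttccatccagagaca
Hspa1b: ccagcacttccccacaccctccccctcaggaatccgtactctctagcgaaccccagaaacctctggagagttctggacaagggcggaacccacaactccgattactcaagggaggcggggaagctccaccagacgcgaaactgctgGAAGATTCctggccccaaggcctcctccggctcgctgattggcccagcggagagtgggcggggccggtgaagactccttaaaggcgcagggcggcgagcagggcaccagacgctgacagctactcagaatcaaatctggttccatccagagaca
Hspa5: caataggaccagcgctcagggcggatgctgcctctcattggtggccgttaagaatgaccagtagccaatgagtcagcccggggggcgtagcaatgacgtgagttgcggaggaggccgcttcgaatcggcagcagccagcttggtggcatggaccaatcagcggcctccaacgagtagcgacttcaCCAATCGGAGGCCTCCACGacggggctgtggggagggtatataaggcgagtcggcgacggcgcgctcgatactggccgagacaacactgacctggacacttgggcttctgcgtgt
Hsp90b1: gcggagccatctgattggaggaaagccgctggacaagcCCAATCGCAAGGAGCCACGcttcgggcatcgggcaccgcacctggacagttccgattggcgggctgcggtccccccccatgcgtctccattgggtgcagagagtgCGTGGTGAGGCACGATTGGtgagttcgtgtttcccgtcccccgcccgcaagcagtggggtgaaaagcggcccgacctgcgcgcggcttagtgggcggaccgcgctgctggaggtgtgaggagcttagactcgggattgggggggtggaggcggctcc
Hspe1: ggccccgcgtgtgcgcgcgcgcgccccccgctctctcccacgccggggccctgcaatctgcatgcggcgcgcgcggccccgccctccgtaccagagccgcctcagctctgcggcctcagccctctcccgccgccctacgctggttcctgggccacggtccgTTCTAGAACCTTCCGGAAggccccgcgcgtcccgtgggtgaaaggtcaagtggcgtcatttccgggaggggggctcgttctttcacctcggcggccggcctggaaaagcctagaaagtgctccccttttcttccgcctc

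The Hspa1a and Hspa1b windows differed at 4 of 300 positions. Each held GAANNTTC once, at -104 to -97 from the start, and neither held the 3-unit element. GAANNTTC occurred in 7.86% of all 32851 windows and makes up the first 8 bases of the 3-unit element. The ER stress element occurred in 39 of the 32851 windows (0.119%), once in that of Hspa5 (-65 to -47) and at 2 places in that of Hsp90b1 (-212 to -194, and -107 to -89 on the opposite strand). The 3-unit heat shock element occurred in 198 windows (0.603%). The Hspe1 window held 2 overlapping matches, at -89 to -77 and -84 to -72, which make up the capitals. Hspe1 and Hspd1 lie head to head, and 1 of the 2 Hspd1 windows (chr1:55087883-55088182, minus strand) shares 285 bases with that of Hspe1, as the reverse complement, with both matches. TTCNNGAA, which the 3-unit element also contains, was in 8.52% of windows, and CCAAT, the first part of the ER stress element, was in 37.4%. A match describes letters only and shows no binding.

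**Figure D1:**
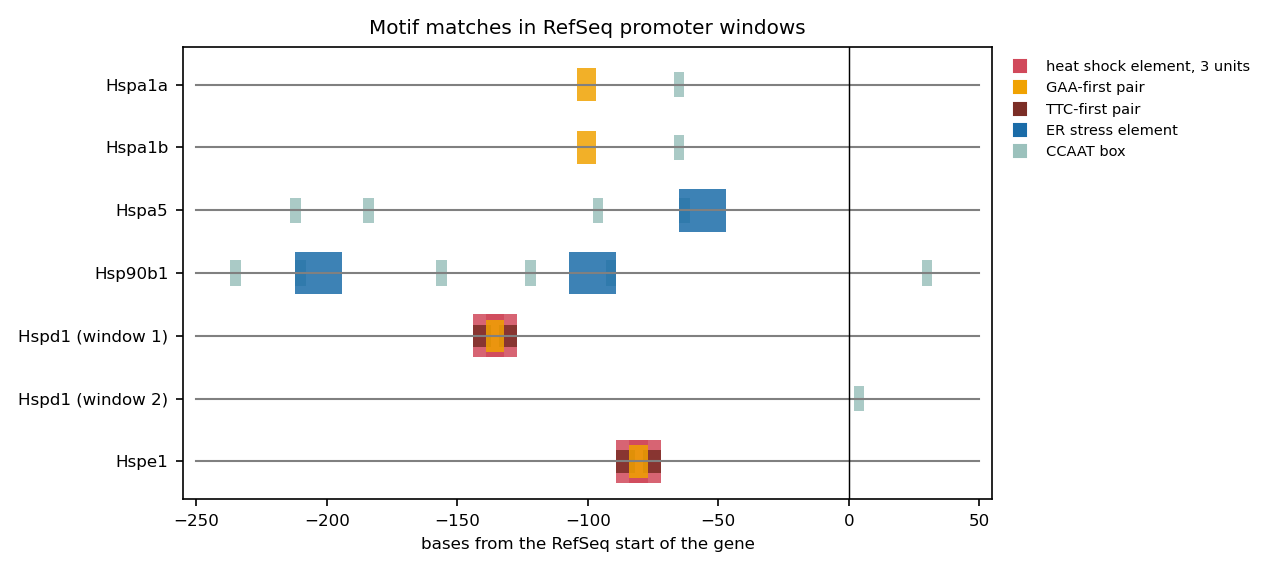
Motif matches in the 7 promoter windows, 1 line per window, with the distance from the RefSeq start in bases on the x axis and a coloured block for each match on either strand (the height and shade only tell overlapping motifs apart). The ER stress element is in the windows of Hspa5 (1 block) and Hsp90b1 (2 blocks), and the 3-unit heat shock element in those of Hspe1 and the first of Hspd1.

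Mutant replicates 3 and 4 stood apart from the other arrays. Each chaperone gene is therefore also given with replicates 1 and 2 alone and with 3 and 4 alone, called the mutant pairs here. Replicates 1 and 2 were less alike, with a correlation of 0.895. This was little above that of replicate 1 with the wild type samples (0.883 to 0.890), while replicate 2 had 0.828 to 0.871 with them. Mutant replicates 3 and 4 correlated at 0.969 with each other across tested probe sets and at 0.747 to 0.758 with wild type arrays. Their summed signal of 14 granulosa and cumulus cell markers was 20149.6 and 16413.5, against 1293.9 and 984.3 in mutant replicates 1 and 2 and 1057.4 to 1674.2 in wild type samples. Of these markers 12 each were above background in mutant replicates 3 and 4, against 10 and 5 in mutant replicates 1 and 2 and 6 to 10 in wild type samples. The background bound itself was 14.7 and 16.2 in mutant replicates 3 and 4, against 27.2 and 37.7 in 1 and 2. Amh and Ptx3 were above it on 0 mutant arrays. In replicates 3 and 4 the brightest were Hsd3b1 (8835.3 and 6889), Vim, Inha and Inhba. Cyp11a1 (30.1 and 39.4) and Ptgs2 (64.3 and 54.9) lay within the wild type range. Markers of the 2-cell embryo and oocyte were above background on every array, 8 of 8. They summed to 27252.7 and 33472.7 in mutant replicates 1 and 2, 16406.3 and 15531.8 in 3 and 4, and 13086.1 to 18051.9 in wild type samples. Summed markers of oviduct epithelium were 620.2 and 885 in mutant replicates 1 and 2, 1700.1 and 1583.3 in 3 and 4, and 502.3 to 760.6 in wild type samples. Those of sperm were 237.2 and 244.1 in mutant replicates 1 and 2, 99.3 and 131 in 3 and 4, and 168.7 to 192 in wild type samples. Those of blood and leukocytes were 235.5 to 336.7 in mutant and 191.8 to 278.4 in wild type samples. Of these, Tnp1 and Tnp2 of sperm and C1qa of leukocytes were above background on 0 arrays. Spike-in control signal was 5.99 and 3.74 times the wild type mean in mutant replicates 1 and 2, against 1.37 and 0.693 times in replicates 3 and 4. The 3'/5' signal ratio of beta-actin was 12.9 and 15.0 in mutant replicates 1 and 2, 7.04 and 4.88 in 3 and 4, and 16.3 to 21.1 in wild type samples. Smarca4 itself was lower in all 4 mutants on the brighter of its 2 probe sets (log2 change -1.26, limma adjusted p = 0.0211) and did not pass on the other (0.04, adjusted p = 0.963). Neither the mutation nor the probe sets could be placed on the transcript from the labels. What part these array differences have in the chaperone results was not tested. In bulk RNA, fewer cells of a type and less RNA per cell cannot be told apart.

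Of the 20 chaperone probe sets tested, 5 were higher in Brg1 mutant embryos and 0 lower, against 2.98% higher and 3.58% lower of all tested probe sets. They were both Hsp90b1 probe sets and 3 of the 4 for Hspa8. At an unadjusted p under 0.05 there were 9 of the 20, beside 25.5% of all tested probe sets. All 4 mutant samples lay above all 4 wild type samples in 7 of the 20, against 7.83% of all tested probe sets, and below them in 0. The median log2 change was 0.48 for these 20 and -0.05 for all tested probe sets. Hspa1a, Hspa1b, Hsp90aa1, Hspa5, Hspd1 and Hspe1 had no probe set that passed.

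**Figure D2:**
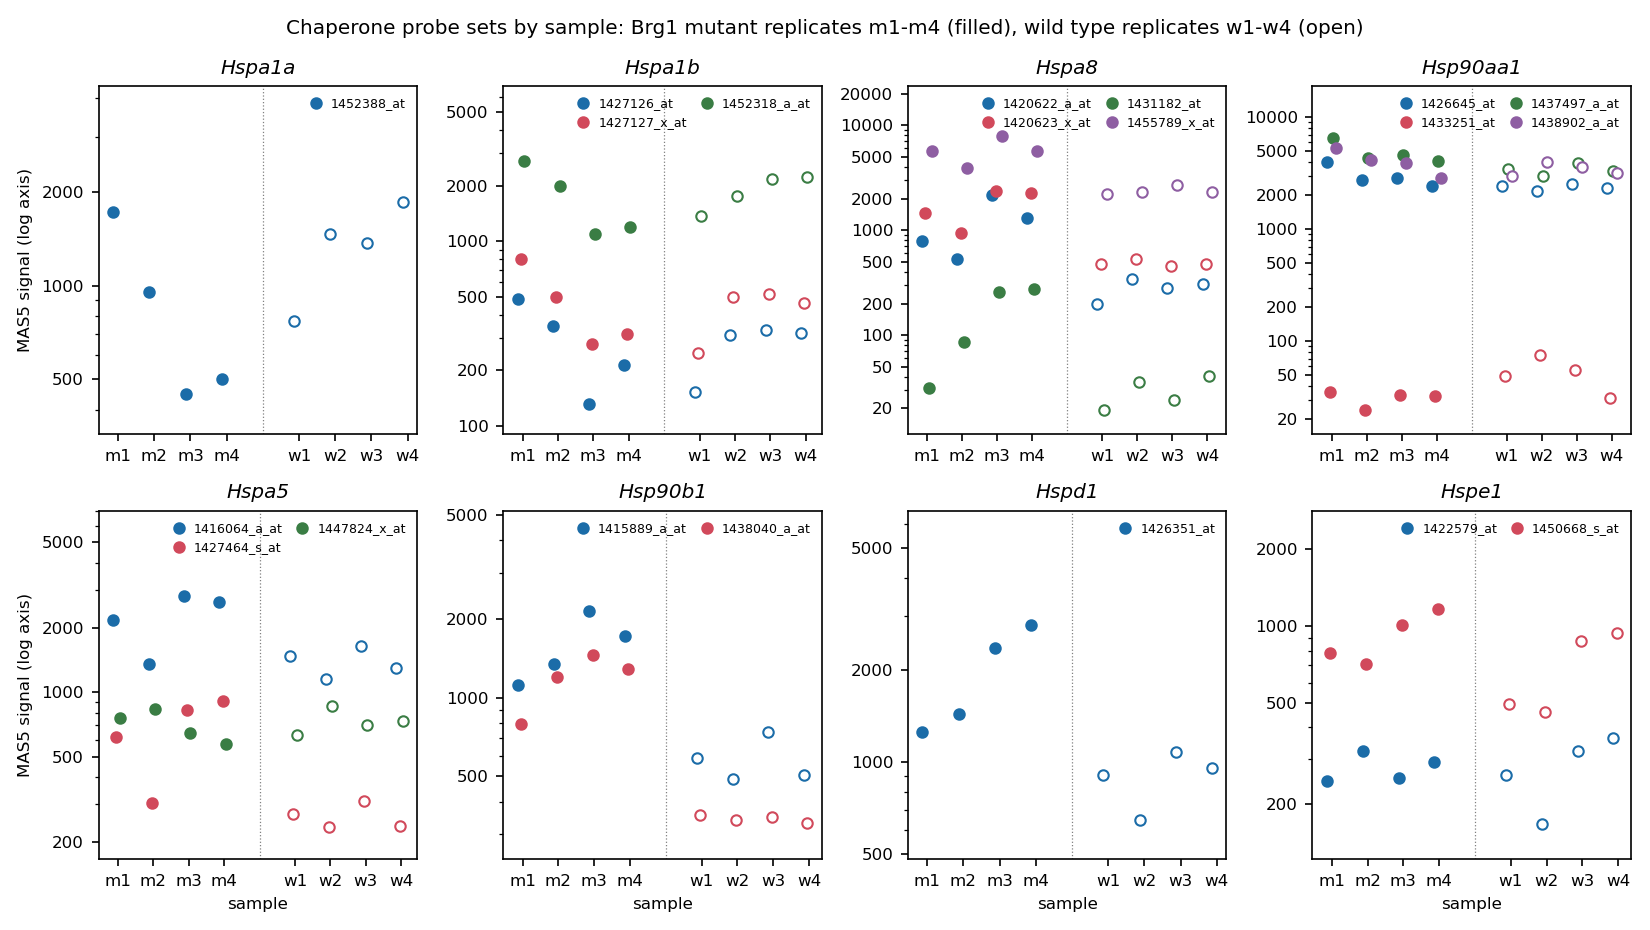
MAS5 signal (log axis) of the 20 tested chaperone probe sets in each of the 8 samples, 1 panel per gene, 1 colour per probe set, with Brg1 mutant replicates as filled and wild type replicates as open circles. Hsp90b1 signals in the mutants (790 to 2148.2) lie above those in wild type (331.3 to 737.6). Hspa1a and Hspa1b are lower in mutant replicates 3 and 4 than in 1 and 2. On 1427126_at and 1427127_x_at of Hspa1b, replicates 3 and 4 overlap the wild type samples.

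Hsp90b1 encodes GRP94, the HSP90 of the ER lumen, which folds secreted and membrane proteins. Its probe set 1438040_a_at read 790, 1200.3, 1457 and 1293.1 in mutant replicates 1 to 4, against 355.6, 340, 350 and 331.3 in wild type replicates 1 to 4. The lowest mutant sample was above the highest wild type sample, and the wild type samples were close together. The mean was 1185 ± 284 in mutant and 344 ± 10.8 in wild type samples (SD, n = 4 each), 3.36-fold higher in the mutants (log2 change 1.75, SE 0.238, limma adjusted p = 0.00827). This call was kept whichever sample was left out, with an adjusted p of at most 0.0474.

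The second Hsp90b1 probe set, 1415889_a_at, read 1114.4, 1350.4, 2148.2 and 1718.1 in mutant replicates, against 587.2, 489.2, 737.6 and 504.5 in wild type replicates. The groups again did not overlap, and the mutant mean was 2.68-fold higher (log2 change 1.42, SE 0.265, limma adjusted p = 0.0185). Its call was lost without mutant replicate 3 or 4 or without wild type replicate 1, 2 or 4 (adjusted p from 0.0519 to 0.0673). Both probe sets passed with either mutant pair alone. With mutant replicates 1 and 2 the log2 changes were 1.501 and 1.10 (limma adjusted p = 0.0133 and 0.0334), and with replicates 3 and 4 they were 2.00 and 1.75 (limma adjusted p = 5.2e-05 and 0.000293). The 2 pairs were not shown to differ, with differences of 0.50 and 0.65 log2 units between replicates 3 and 4 and replicates 1 and 2 (95% intervals -0.06 to 1.05 and 0.06 to 1.23, limma adjusted p = 0.159 and 0.0865).

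Hspa5 encodes BiP (GRP78), the HSP70 of the ER, which also keeps the ER stress sensors inactive. Its 3 probe sets gave differing readings, and none passed. Probe set 1427464_s_at read 618.3, 304.9, 825.4 and 910.8 in mutant replicates, against 269.1, 235.2, 311.3 and 237.1 in wild type replicates. Mutant replicate 2 lay inside the wild type range and the other 3 mutant samples were above it (log2 change 1.23, 95% interval 0.48 to 1.98, limma adjusted p = 0.0547).

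Probe set 1416064_a_at of Hspa5 read 2172.3, 1360.8, 2820.3 and 2648.5 in mutant replicates, against 1476.8, 1152.7, 1648.8 and 1298.9 in wild type replicates, and again mutant replicate 2 was the 1 that overlapped (log2 change 0.65, 95% interval 0.04 to 1.26, limma adjusted p = 0.171). Probe sets 1427464_s_at and 1416064_a_at each passed in 1 of the 8 fits with 1 sample left out, that without mutant replicate 2 (limma adjusted p = 0.0100 and 0.0344). Higher calls over the array were 1411 in that fit, in place of 671. Across the other such fits their limma adjusted p reached 0.143 and 0.369. The third, 1447824_x_at, read 574.6 to 838 in mutant and 627.7 to 857.2 in wild type samples (log2 change -0.06, limma adjusted p = 0.895). The suffix _x_at marks probe sets some of whose probes also match other transcripts, and _s_at those shared by several transcripts. With mutant replicates 3 and 4 alone, 1427464_s_at and 1416064_a_at were higher (log2 changes 1.73 and 0.98, limma adjusted p = 0.000210 and 0.00248). With replicates 1 and 2 alone neither passed (0.73 and 0.32, adjusted p = 0.181 and 0.473). The difference between the pairs passed for 1427464_s_at (0.998, limma adjusted p = 0.0423) and not for 1416064_a_at (0.67, limma adjusted p = 0.0811).

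Hspa8 encodes HSC70, the constitutive cytosolic HSP70, which folds new proteins and uncoats clathrin vesicles. Its probe set 1420623_x_at read 1454.9, 948.7, 2375.6 and 2277 in mutant replicates, against 472.3, 530.6, 457.2 and 478.8 in wild type replicates. Every mutant sample was above the wild type range, replicates 3 and 4 by the most. The mean was 1764 ± 683 in mutant and 485 ± 31.9 in wild type samples (SD, n = 4 each), 3.42-fold higher in the mutants (log2 change 1.77, SE 0.303, limma adjusted p = 0.0150).

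Probe set 1420622_a_at of Hspa8 read 781.2, 525.5, 2181.3 and 1305.8 in mutant replicates, against 197.8, 344, 279.9 and 304.6 in wild type replicates (3.77-fold higher, log2 change 1.91, SE 0.407, limma adjusted p = 0.0258). Probe set 1455789_x_at read 5666.7, 3930.8, 7935.6 and 5617.3 in mutant replicates, against 2220, 2284.3, 2672.1 and 2303.9 in wild type replicates (2.37-fold higher, log2 change 1.25, SE 0.256, limma adjusted p = 0.0232). The groups did not overlap on either. The remaining, dim probe set, 1431182_at, read 31.5, 86.3, 257.2 and 273.2 in mutant replicates, against 19.2, 35.7, 24 and 40.6 in wild type replicates, where 2 of 4 arrays were above background. Mutant replicate 1 overlapped the wild type samples there, and the probe set did not pass (log2 change 2.04, 95% interval 0.62 to 3.46, limma adjusted p = 0.0810). It passed in 1 of the 8 fits with 1 sample left out, that without mutant replicate 1 (limma adjusted p = 0.0129). Higher calls over the array were 1262 in that fit, in place of 671. Across the other such fits its limma adjusted p reached 0.199.

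With 1 sample left out, the log2 changes of the 3 called Hspa8 probe sets were 1.60 to 2.04 (1420623_x_at), 1.56 to 2.24 (1420622_a_at) and 1.08 to 1.42 (1455789_x_at). Higher calls over the whole array were 40 to 195, in place of 671, in the 6 such fits without mutant replicate 3 or 4 or a wild type sample. The calls of 1420622_a_at and 1455789_x_at were kept in 2 of the 8 fits that left out 1 sample, those without mutant replicate 1 or 2, and reached an adjusted p of 0.0892 and 0.0883 in the others. The call of 1420623_x_at was lost without wild type replicate 1, 3 or 4 (adjusted p of at most 0.0597). With mutant replicates 1 and 2 alone the same 3 probe sets were higher, by 1.28 (1420623_x_at), 1.22 (1420622_a_at) and 0.998 (1455789_x_at) on the log2 scale (limma adjusted p = 0.0203, 0.0416 and 0.0257). With replicates 3 and 4 alone all 4 passed, with log2 changes of 2.26, 2.61 and 1.498 for these 3 and 3.21 for 1431182_at (limma adjusted p of at most 0.000229). The difference between the pairs passed for 3 of the 4: 1431182_at (2.35, limma adjusted p = 0.00765), 1420622_a_at (1.40, adjusted p = 0.0128) and 1420623_x_at (0.99, adjusted p = 0.0136), and not for 1455789_x_at (0.50, adjusted p = 0.142).

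Hspa1a and Hspa1b encode the stress-inducible cytosolic HSP70. They are near-identical neighbours, so reads of one copy's transcript on the other's probe sets cannot be told apart, and the 4 probe sets are best taken as readings of the pair. Hspa1a (1452388_at) read 1723.7, 957.5, 447.3 and 499.8 in mutant replicates, against 770.4, 1464.5, 1371.4 and 1856.3 in wild type replicates. Mutant replicates 1 and 2 lay within the wild type range and replicates 3 and 4 below it (log2 change -0.74, 95% interval -1.71 to 0.23, limma adjusted p = 0.323).

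The brightest Hspa1b probe set, 1452318_a_at, read 2699.3, 1984.4, 1092.6 and 1196.8 in mutant replicates, against 1361.9, 1745.1, 2158.5 and 2225.5 in wild type replicates. Probe set 1427126_at read 485.7, 348.2, 131.2 and 213.7 in mutant replicates, against 153.2, 312, 331.4 and 318.2 in wild type replicates. Probe set 1427127_x_at read 798.3, 501.6, 278.6 and 312.9 in mutant replicates, against 248.2, 500.3, 517.7 and 462.2 in wild type replicates. On all 3 the highest mutant sample was replicate 1 and the lowest replicate 3, and the lowest wild type sample was replicate 1. Over all 4 mutants the log2 changes were -0.18, -0.02 and 0.06, with none passing (limma adjusted p from 0.784 to 0.982). The 95% intervals ran from -0.90 to 0.54, from -0.95 to 0.90 and from -0.77 to 0.89 for the 3 in this order.

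The mutant pairs differed on all 4 probe sets of Hspa1a and Hspa1b. The difference, replicates 3 and 4 minus replicates 1 and 2, was -1.44 for Hspa1a and -1.30 (1427126_at), -1.10 (1427127_x_at) and -1.02 (1452318_a_at) for Hspa1b on the log2 scale (limma adjusted p = 0.0199, 0.0356, 0.0475 and 0.0188). All 4 lost the call without mutant replicate 1 (adjusted p from 0.0816 to 0.205), without replicate 3 (0.105 to 0.222) and without replicate 4 (0.0580 to 0.144). With arrays centred on their median, Hspa1a kept it (adjusted p = 0.0435) and Hspa1b did not (0.0729 to 0.0974). Against wild type, replicates 3 and 4 were lower for Hspa1a (log2 change -1.46, limma adjusted p = 0.00503) and for 1452318_a_at of Hspa1b (-0.68, adjusted p = 0.0322), and not for the other 2 (-0.67 and -0.49, adjusted p = 0.156 and 0.222). Replicates 1 and 2 passed on none of the 4 (log2 changes of -0.02 for Hspa1a and 0.33 to 0.63 for Hspa1b, limma adjusted p from 0.301 to 0.980).

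Hsp90aa1 encodes the stress-inducible cytosolic HSP90, which holds kinases and steroid receptors ready for activation. Its probe set 1437497_a_at read 6529.2, 4349.2, 4559.3 and 4056.7 in mutant replicates, against 3445, 2984.3, 3870.3 and 3277.2 in wild type replicates. The groups did not overlap, and yet the log2 change of 0.50 did not pass (95% interval -0.02 to 1.03, limma adjusted p = 0.215). Mutant replicate 1 was the highest sample on this probe set, on 1426645_at and on 1438902_a_at.

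Probe set 1426645_at of Hsp90aa1 read 3968.9, 2728.8, 2874.9 and 2425.4 in mutant replicates, against 2417.4, 2182.8, 2541.8 and 2332.3 in wild type replicates (log2 change 0.32, limma adjusted p = 0.421). Probe set 1438902_a_at read 2892.2 to 5317.3 in mutant and 3013.2 to 3993 in wild type samples (0.21, adjusted p = 0.648). The dim 1433251_at read 24.4 to 35.1 in mutant and 31.4 to 74.9 in wild type samples (-0.71, adjusted p = 0.243). The groups overlapped on these 3. The remaining probe set, 1441827_x_at, was too dim to be tested, with signals of 19.2 to 27.5 in mutant and 5.3 to 25.4 in wild type samples, above background on 3 mutant arrays and 1 wild type array. No Hsp90aa1 probe set passed with either mutant pair alone or between the pairs (limma adjusted p of at least 0.0942).

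Hspd1 and Hspe1 encode HSP60 and HSP10, the 2 parts of the chaperonin of the mitochondrial matrix, and share the divergent promoter printed above. Hspd1 (1426351_at) read 1257.5, 1442.2, 2356.1 and 2803.9 in mutant replicates, against 905.8, 649.4, 1082.7 and 956.4 in wild type replicates. Every mutant sample was above the wild type range, replicates 3 and 4 by the most, but the change did not pass (log2 change 1.07, 95% interval 0.40 to 1.75, limma adjusted p = 0.0604). It passed in 2 of the 8 fits with 1 sample left out, those without mutant replicate 1 or 2 (limma adjusted p as low as 0.0293). Higher calls over the array were 1262 and 1411 in these fits, in place of 671. Across the other such fits its limma adjusted p reached 0.149.

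Hspe1 probe set 1450668_s_at read 786.1, 709.7, 1010.7 and 1166.7 in mutant replicates, against 493.3, 461.3, 876.7 and 942.1 in wild type replicates (log2 change 0.45, 95% interval -0.22 to 1.12, limma adjusted p = 0.387). Probe set 1422579_at read 245.8, 322.3, 254.5 and 291.8 in mutant replicates, against 261.3, 167.8, 323.2 and 364.2 in wild type replicates (0.05, 95% interval -0.57 to 0.66, adjusted p = 0.940). Both overlapped between the groups. With mutant replicates 3 and 4 alone Hspd1 was higher (log2 change 1.54, limma adjusted p = 0.000654) and Hspe1 did not pass (0.72 and 0.02, adjusted p = 0.0925 and 0.957). With replicates 1 and 2 alone neither gene passed (0.61 for Hspd1, 0.18 and 0.07 for Hspe1, limma adjusted p of at least 0.171). The difference between the pairs passed for Hspd1 (0.93, limma adjusted p = 0.0235), and whether Hspd1 and Hspe1 differ in their change was not tested.

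**Figure D3:**
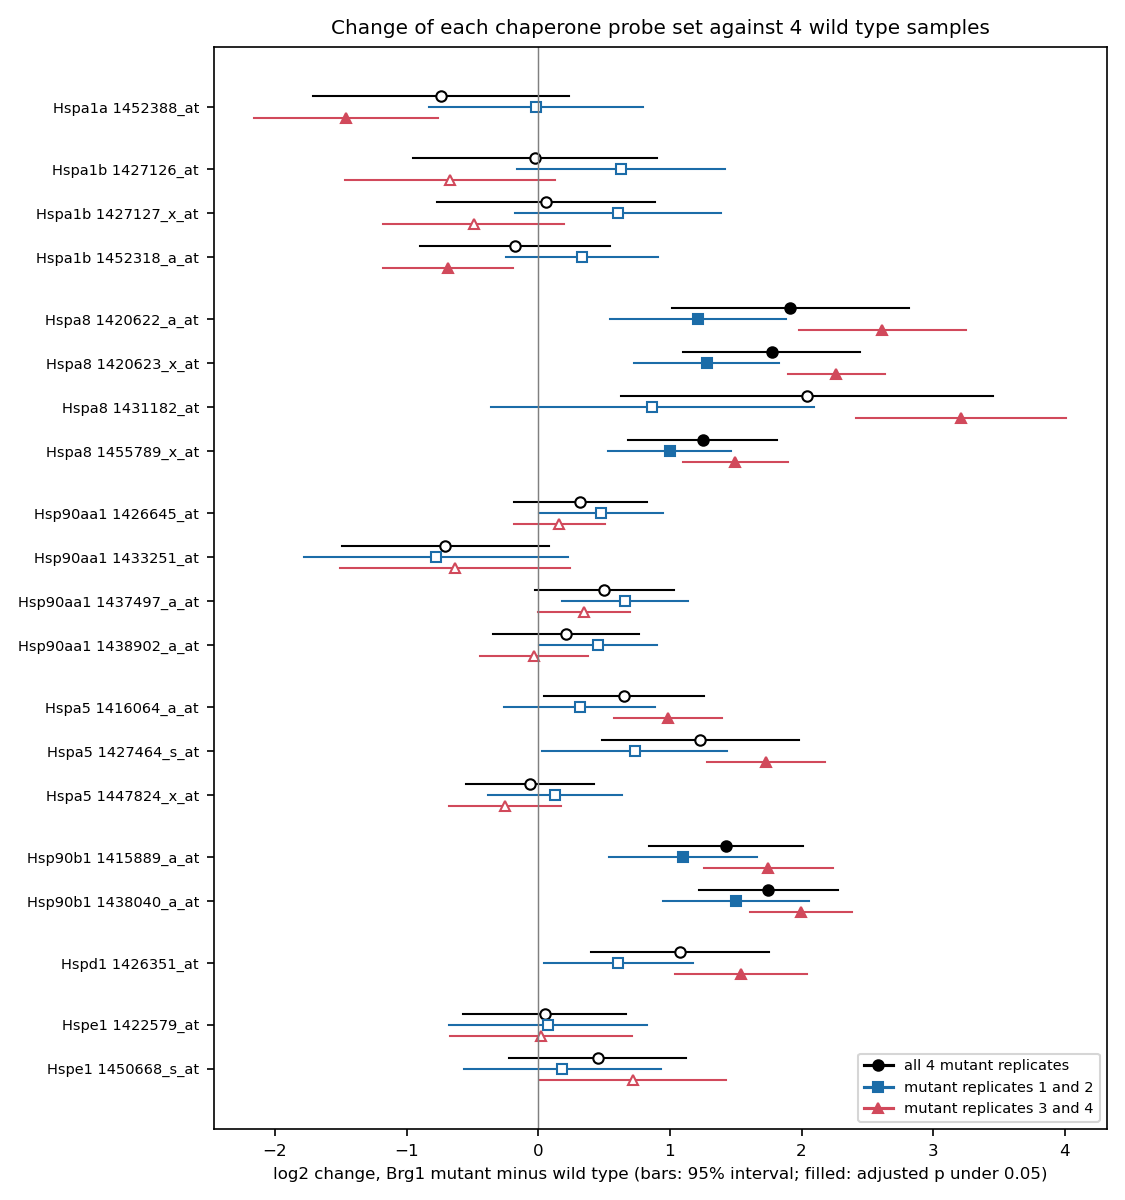
Log2 change of each tested chaperone probe set against the 4 wild type samples, with 95% intervals from the fit, for all 4 mutant replicates (circles), replicates 1 and 2 (squares) and replicates 3 and 4 (triangles), filled where the adjusted p was under 0.05. The 3 fits share their wild type samples. Both Hsp90b1 probe sets and 3 of Hspa8 are filled in all 3 fits, while Hspa1a and 1 Hspa1b probe set are filled only for replicates 3 and 4, with changes of -1.46 and -0.68.

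With mutant replicates 1 and 2 alone, 5 of the 20 probe sets were higher and 0 lower than in wild type, against 3.6% higher and 3.11% lower of all tested probe sets. The 5 were the Hsp90b1 and Hspa8 probe sets that passed with all 4 mutants, and at an unadjusted p under 0.05 there were 10 of the 20, again beside 25.5% of all tested probe sets. With mutant replicates 3 and 4 alone, 9 were higher (2 of Hsp90b1, 4 of Hspa8, 2 of Hspa5 and Hspd1) and 2 lower (Hspa1a and 1 of Hspa1b), where 18.3% of all tested probe sets were higher and 23.2% lower. The members' median log2 change was 0.61 with replicates 1 and 2 and 0.53 with replicates 3 and 4, beside 0.05 and -0.20 for all tested probe sets. Between the mutant pairs, replicates 3 and 4 were higher on 5 of the 20 probe sets (3 of Hspa8, 1 of Hspa5 and Hspd1) and lower on 4 (Hspa1a and 3 of Hspa1b), where 13.6% of all tested probe sets were higher and 17% lower. Of these 9 calls, 0 were left without mutant replicate 3 and 1 without replicate 4 (1420622_a_at of Hspa8), where 8 and 10 of the 20 had an unadjusted limma p under 0.05, beside 32.5% and 30.2% of all tested probe sets. Under quantile normalization 8 were higher and 4 lower, the 3 added being 1455789_x_at of Hspa8 (0.99, limma adjusted p = 0.00387), 1416064_a_at of Hspa5 (0.79, adjusted p = 0.0304) and 1415889_a_at of Hsp90b1 (0.72, adjusted p = 0.0462). Of all 22518 tested probe sets, 3037 were higher and 4342 lower in that fit, in place of 3070 and 3826. Within the cytosolic HSP70 genes, replicates 3 and 4 were called higher on 3 of 4 Hspa8 probe sets and lower on all 4 of Hspa1a and Hspa1b. The latter 4 are readings of a near-identical pair of genes, and 0 of these calls were left without mutant replicate 3.

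The other genes of protein folding were taken as 10 lists of 148 genes, of which 143 were on the array and 125 had a tested probe set. The brightest tested probe set stood for each gene. In Brg1 mutants 6 of the 125 were higher and 2 lower, where 3.01% of all 11934 tested genes were higher and 4.03% lower. At an unadjusted p under 0.05 there were 44 of the 125, beside 27% of all tested genes. The median log2 change was 0.10 for the 125 and -0.05 for all genes. The balance of higher and lower depended on the scaling. There were 4 higher and 2 lower under quantile normalization, 2 and 6 under median centring, and 3 and 4 under 75th percentile centring. For all tested genes the counts moved as well, from 359 higher and 481 lower to 279 and 467, 214 and 926, and 260 and 657. Array weights gave 45 higher and 28 lower, beside 2802 higher and 3483 lower of all 11934 genes. With the replicate number as a block limma called 0, beside 7 higher and 2 lower of all genes. At an unadjusted p under 0.05 the block gave 34, beside 2813 of all genes.

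ER chaperones and folding enzymes held 4 of the 6 genes that were higher, among 18 tested (0 lower, median 0.39). This count depended on the setting, with 1 higher and 1 lower under median centring and under centring on the 75th percentile, 2 higher under quantile normalization or without the intensity trend, and 1 higher with no filter. Over all tested genes, in this order of settings, 214, 260, 279, 288 and 277 were higher, in place of 359. With 1 sample left out the ER list's count was 4 without mutant replicate 1 and 5 without mutant replicate 2. It was 0 in the other 6 fits (5 to 7 at an unadjusted limma p under 0.05) and with the replicate block (6 at that level). Of all 11934 tested genes, 711 were higher without mutant replicate 1, 770 without replicate 2 and 26 to 101 in the other 6 fits. In those 6 fits 2426 to 2783 genes had an unadjusted limma p under 0.05. With the block 7 genes were higher, and 2813 were at that level. Pdia6, a disulphide isomerase of the ER, read 213.2, 225.6, 638.8 and 661.9 in mutant replicates, against 56.9, 82.1, 143.3 and 83.1 in wild type replicates (4.37-fold higher, log2 change 2.13, limma adjusted p = 0.0251). All mutant samples were above all wild type samples, and replicates 3 and 4 stood well above 1 and 2. Pdia3, the isomerase that works with calnexin and calreticulin on glycoproteins, read 241.7 to 539.8 in mutant and 162 to 213.3 in wild type samples (2.23-fold, adjusted p = 0.0384). Pdia5, another isomerase, read 221.5 to 289.1 in mutant and 87.3 to 159 in wild type samples (2.08-fold, adjusted p = 0.0403).

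Hspa13, an HSP70-like protein of microsomes, read 84 to 145 in mutant and 18.6 to 55.1 in wild type samples (3.04-fold, limma adjusted p = 0.0442), and its other probe set passed too (log2 change 2.60, adjusted p = 0.0258). That probe set, 1433772_at, read 17 to 33.7 in wild type samples, where 2 of 4 arrays were above background. It read 61.6, 65.5, 269.8 and 281.1 in mutant replicates and did not pass with replicates 1 and 2 alone (limma adjusted p = 0.0851). The dimmer probe sets of Pdia6 and Pdia3 did not pass (-0.22 and -0.16, adjusted p = 0.732 and 0.804). None of the 9 tested ER stress sensors and factors passed, and 7 had an unadjusted p under 0.05, beside 27% of all tested genes, with a median of 0.62. Among these 7, Eif2ak3 was lower (log2 change -0.68). The count of 7 became 6 under quantile normalization, 4 under median centring and 4 under 75th percentile centring. Of all tested genes 3201, 3515 and 3317 were at that level in these fits, in place of 3225. The gene of this list with the smallest adjusted p was Atf6, a sensor that is itself a binder of the ER stress element once cleaved, at 78.7 to 151.2 in mutant and 32.8 to 66.4 in wild type samples (1.14, limma adjusted p = 0.0601). Its other tested probe set read 33.6, 27.2, 141.5 and 133.6 in mutant replicates and 27.1 to 42.4 in wild type samples (0.93, limma adjusted p = 0.328).

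Of 35 J-domain cochaperones, which bring clients to HSP70 and drive its ATPase, 1 was higher and 1 lower (median -0.19). Dnajb2 read 80.4 to 183.8 in mutant and 20.4 to 48.3 in wild type samples (3.69-fold higher, limma adjusted p = 0.0231). Dnajc21, which in yeast has a counterpart in ribosome assembly, read 1638.2, 1324.7, 1225.8 and 1164 in mutant replicates, against 2949.6, 2342.5, 2382.5 and 2509.4 in wild type replicates (1.91-fold lower, adjusted p = 0.0330). One of its 2 other probe sets was lower too (-1.03, adjusted p = 0.0370) and one did not pass (-0.46, adjusted p = 0.303).

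Of 10 nucleotide exchange factors, which release ADP and client from HSP70, 1 was higher and 1 lower (median -0.12). Bag5, an exchange factor with several BAG domains, read 575.6, 317.2, 290.7 and 271.4 in mutant replicates, against 1495.7, 1225.9, 1861.2 and 1691.6 in wild type replicates. The highest mutant sample lay far below the lowest wild type sample (4.47-fold lower, log2 change -2.16, limma adjusted p = 0.00753). Sil1, the exchange factor of BiP in the ER, read 102.3, 82.3, 275.4 and 254.9 in mutant replicates, against 52.4, 39.8, 36.2 and 71.5 in wild type replicates (3.23-fold higher, adjusted p = 0.0469).

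In the other 6 lists limma called 0 genes. At an unadjusted p under 0.05, the level that 27% of all tested genes reached, there were 1 of 6 cytosolic HSP70 and HSP110 genes (median -0.17), 8 of 17 HSP90 cochaperones (-0.35), 0 of 4 small heat shock proteins (0.04), 5 of 14 TRiC chaperonin and prefoldin subunits (0.27), 2 of 8 mitochondrial chaperones and proteases (0.02) and 1 of 4 heat shock factors and their binding proteins (-0.02). The genes with the smallest adjusted p in these lists were Hspa4, an HSP110 (log2 change 0.88, adjusted p = 0.102), Ahsa2, a relative of the HSP90 activator AHA1 (-0.91, adjusted p = 0.0524), Hspb1, or HSP25 (0.27, adjusted p = 0.633), the prefoldin subunit Pfdn5 (1.15, adjusted p = 0.0615), the matrix protease Lonp1 (0.74, adjusted p = 0.0518) and Hsf5, a heat shock factor of the germ line (0.94, adjusted p = 0.0858). Another Hspa4 probe set, 1435194_at, passed with all 4 mutants (2.53, adjusted p = 0.0338) and not with mutant replicates 1 and 2 alone (1.36, adjusted p = 0.0787). It read 62.3, 90.7, 447.3 and 326.9 in mutant replicates, against 36.1, 27.1, 22.1 and 34.4 in wild type replicates. The remaining tested Hspa4 probe set, 1416147_at, overlapped between the groups and did not pass (0.15, limma adjusted p = 0.815).

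Of the 8 list genes that passed, Bag5 also passed with mutant replicates 1 and 2 alone (limma adjusted p = 0.0112), and the other 7 did not (adjusted p from 0.0511 to 0.152). All 8 passed with replicates 3 and 4 alone. Bag5 kept its call whichever sample was left out, and each of the other 7 kept it in 1 or 2 of the 8 fits that left out 1 sample, those without mutant replicate 1 or 2.

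With mutant replicates 1 and 2 alone, 1 list gene was higher and 4 were lower than in wild type, where 3.86% of all tested genes were higher and 3.58% lower. Ddit3, which encodes the ER stress factor CHOP, was higher (log2 change 3.26, limma adjusted p = 0.0352). It did not pass with replicates 3 and 4 alone (0.54, limma adjusted p = 0.600) or with all 4 mutants (1.90, adjusted p = 0.189). Bag5, Ahsa2, the ER oxidase Ero1a and the J-domain protein Dnaja1 were lower with replicates 1 and 2 (-1.86, -1.07, -1.39 and -1.32, limma adjusted p from 0.0112 to 0.0486). With replicates 3 and 4 alone, 45 were higher and 22 lower, where 19.2% of all tested genes were higher and 24.4% lower. Bag5, Ahsa2 and Ero1a were lower in both fits, which share the wild type samples. Among the 45 were 11 of 18 ER chaperones and folding enzymes (2 lower), 8 of 14 TRiC and prefoldin subunits (0 lower) and 5 of 9 ER stress genes (1 lower). Xbp1, the factor spliced on ER stress, was at 4.15 (limma adjusted p = 6.67e-06). It did not pass with replicates 1 and 2 alone (0.69, limma adjusted p = 0.168) or with all 4 mutants (2.42, adjusted p = 0.0897). With replicates 3 and 4 alone, 6 of 35 J-domain cochaperones were higher and 10 lower, beside the 19.2% and 24.4% of all tested genes.

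**Figure D4:**
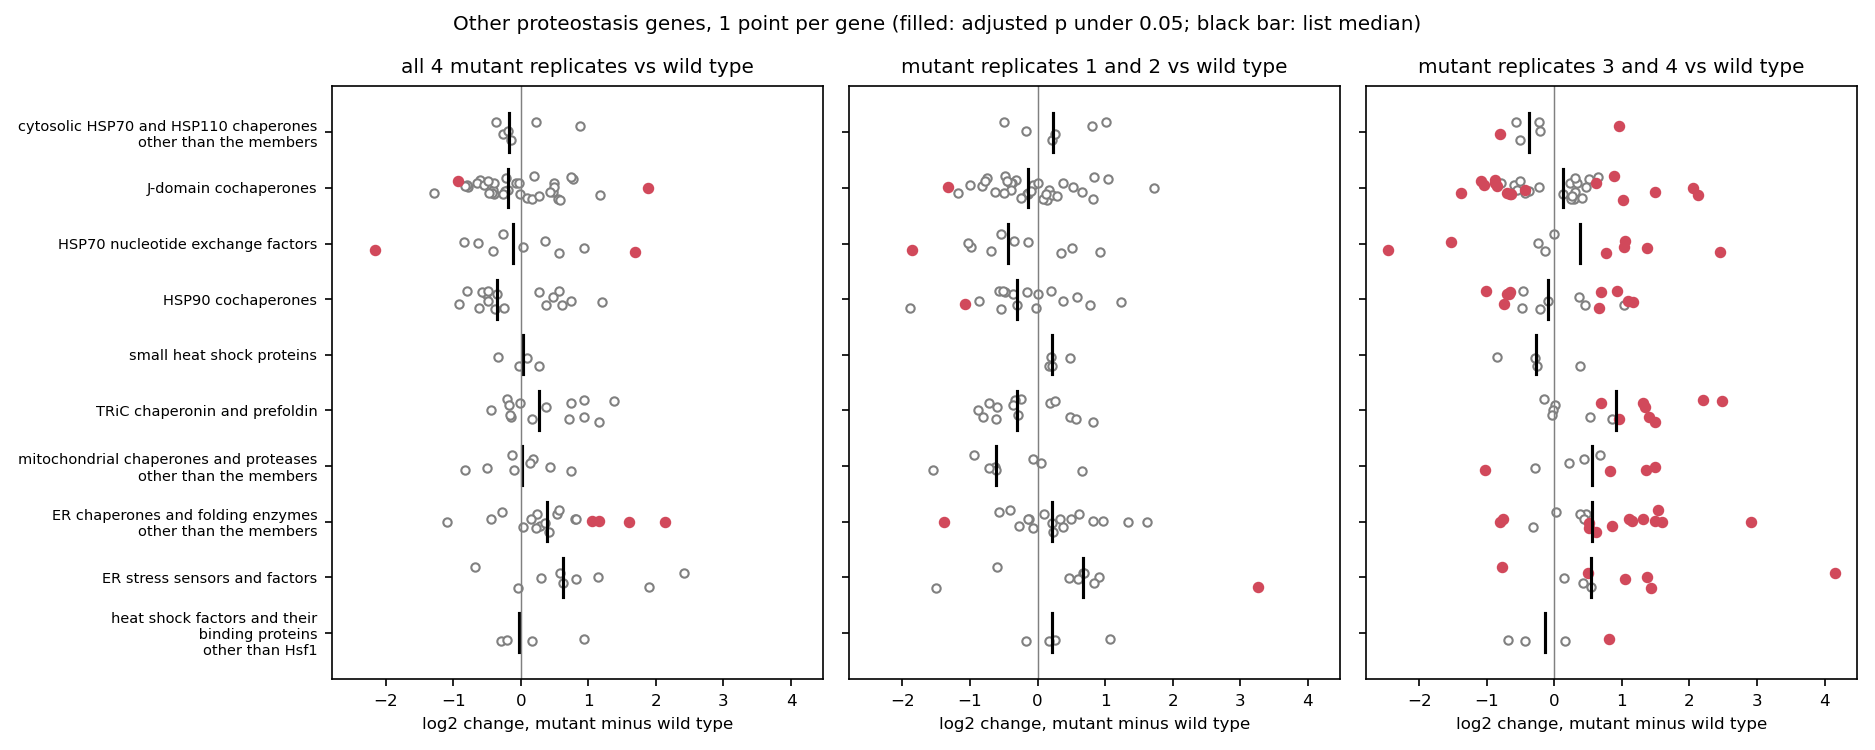
Log2 change against wild type of the 125 tested genes in the 10 lists, 1 point per gene, with all 4 mutant replicates (left), replicates 1 and 2 (middle) and replicates 3 and 4 (right), filled where the adjusted p was under 0.05, and a black bar at each list's median. There are 8 filled points on the left, 5 in the middle and 67 on the right, and the medians of the ER chaperones and of the ER stress genes lie above 0 in all 3 panels.

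The pattern of the brightest chaperone probe set, 1437497_a_at of Hsp90aa1, was most like those of Phtf1, Depdc7 and Meioc, with Pearson correlations of log2 signal over the 8 arrays of 0.967, 0.954 and 0.952. All 3 were highest in mutant replicate 1, as Hsp90aa1 was. The arrays share labelling and scaling, and these correlations are a description.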

How the data were processed

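The deposited values were array intensities, which the authors had made with MAS5, per the submitters' processing notes (version not given in the sources used here), with 1 signal per probe set. Per the labels' protocols, RNA of 20 embryos per sample was purified with a PicoPure kit and labelled with biotin for Affymetrix arrays by a small sample assay. The 2% trimmed mean was 150 on all 8 arrays, so no further scaling was done. Of 45101 probe sets, 64 controls were set aside. Signals were floored at 1 and log2 was taken. The upper 50% by mean log2 signal (22518 probe sets, at least 5.25) were tested in limma 3.58.1 under R 4.3.3 (two-sided, lmFit and eBayes with trend) with Benjamini-Hochberg adjustment over all of them and a threshold of 0.05. Standard errors and 95% intervals come from that fit, and folds are log2 changes taken back to the linear scale.

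Mutants and wild type were compared with all 8 samples, and then with 1 mutant pair left out. The difference between the pairs came from a fit of 3 sets of samples (mutant replicates 3 and 4, mutant replicates 1 and 2, wild type). A probe set was above background where it exceeded the 95th percentile of 27 Bacillus control probe sets on that array, a bound chosen after the data were seen. Of 45037 probe sets, 34945 had 1 symbol in the platform annotation, 932 several and 9160 none. The genes and lists were chosen with earlier results of these data known. Named genes were all chaperone members, up to 4 genes of each list that passed or else the 1 with the smallest adjusted p, Smarca4, the markers, and the 3 genes most like the brightest member probe set. Ddit3, Ero1a, Dnaja1 and Xbp1 were named after their values were seen. The fit was tested on simulated data. Alternatives were other normalizations, filters, pseudocount and weights, the replicate block, and samples left out. The number of arrays limits the precision.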

Additional observations from a re-analysis of the deposited data

Results flagged for a closer look

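In 5 of 72 groups of 4 samples examined, 1 sample stood apart from the others, its gap to the nearest exceeding Dixon's 95% critical share of the group's range of log2 signal, and chance gives about 1 in 20. In mutant embryos, replicate 1 was low for the ER isomerase Pdia5, at 221.5 (gap 0.963 of the range), and for the mitochondrial protease Lonp1, at 566.3 (0.835). In wild type embryos, replicate 1 was low on 2 probe sets of Hspa1b, with a signal of 153.2 on 1427126_at (0.922) and of 248.2 on 1427127_x_at (0.846). In wild type embryos, replicate 2 was low for the HSP110 gene Hspa4, at 181.9 (0.837).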

How the results depend on the processing

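The count of 5 chaperone probe sets called between mutants and wild type was 3 without probe sets ending in _x_at or _s_at, which leaves fewer to test, 7 in the upper 30% by signal (adding Hspa5 1427464_s_at and Hspd1, adjusted p = 0.0432 and 0.0481), 11 with array weights (9 higher, 2 lower), 11 without mutant replicates 1 and 2 (9 higher, 2 lower) and 1 to 8 with 1 sample left out. The replicate number as a block left 0 calls (9 at an unadjusted p under 0.05, beside 22.5% of the array), and 10 higher and 5 lower over the array in place of 671 and 807. Array-wide, higher and lower calls were 537 and 708 without _x_at or _s_at probe sets, and 568 and 914 in the upper 30%. Without mutant replicates 1 and 2 they were 4126 and 5232. With 1 sample left out they ran from 40 and 33 to 1411 and 1515. Same-numbered mutant and wild type samples did not deviate together (r from -0.18 to 0.02). The mutant deviations also hold the split between the mutant pairs, so this check cannot exclude a shared day or collection. The labels do not say whether same-numbered samples share these, and no block was run for the mutant pairs. The 9 calls between mutant pairs became 0 to 9 with 1 sample left out, 0 of them without replicate 3 (8 at an unadjusted p under 0.05) and 1 without replicate 4, 6 under median centring (5 higher, 1 lower) and 12 under quantile normalization (8 higher, 4 lower). The 8 list calls became 73 with array weights (45 higher, 28 lower) and 0 with the replicate block (34 of 125 at an unadjusted p under 0.05), both chosen after seeing the data, 3 with no filter, 5 with no intensity trend, 13 with a gene's probe sets averaged, 5 without mutant replicates 3 and 4, 67 without 1 and 2, and 1 to 19 with 1 sample left out. Calls over the array moved too, with 5099 probe sets higher and 6387 lower under array weights, and 2802 genes higher and 3483 lower. The causes were not tested. Scaling moved the array-wide median change between -0.05 (as deposited) and -0.22 (median centring).

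Direction turned for 6 uncalled chaperone changes between mutants and wild type. They were Hspe1 1422579_at under median centring (-0.13), 75th percentile centring (-0.10) and array weights (-0.19), and with 1 sample left out (-0.18 to 0.19); Hspa1b 1427126_at without mutant replicates 3 and 4 (0.63) and with 1 left out (-0.32 to 0.31, on the other side of 0 at 0.31, 0.08, 0.05, 0.08 and 0.06). Hspa1b 1427127_x_at turned under median centring (-0.12), 75th percentile centring (-0.087), array weights (-0.49), without mutant replicates 1 and 2 (-0.49) and with 1 left out (-0.24 to 0.27). Hspa1b 1452318_a_at turned without replicates 3 and 4 (0.33) and with 1 left out (-0.42 to 0.015), Hspa5 1447824_x_at under quantile normalization (0.022), without replicates 3 and 4 (0.13) and with 1 left out (-0.15 to 0.030), and Hsp90aa1 1438902_a_at without replicates 1 and 2 (-0.030). Between mutant pairs, uncalled changes turned for Hspe1 1422579_at (0.10 under median centring, -0.24 to 0.15 with 1 left out), Hsp90aa1 1433251_at (-0.011 under 75th percentile centring, -0.11 to 0.41 with 1 left out) and Hsp90aa1 1437497_a_at (0.073 under quantile normalization).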
